A study of Mus musculus with 28 samples.

Results

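The genes described here are 10 paired and inhibitory immune receptors of retinal microglia, the resident immune cells of the neural retina: Lair1, Pilra, Pilrb1, Pilrb2, Milr1, Sirpa, Pirb, Cd33, Cd200r1 and Trem1. They are 10 of the 40021 genes in a table of mRNA-Seq values, taken by symbol, and all 10 were listed in it. They were chosen from their measured levels across the groups below, so their levels and the differences between groups are given as a description, without p-values. A gene entered the fit if 5 or more of the 28 retinas had an RPKM of 1 or higher, and 9 of the 10 genes did. Trem1 did not, and Pilrb1 met this criterion only through the 5 retinas of the 18 h group, in which it was high.

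Microglia were sorted as live cells with high tdTomato fluorescence from single retinas, and 28 retinas were sequenced. All mice, naïve ones included, were male heterozygotes of the Cx3cr1CreER:R26-tdTomato line on a C57BL/6 background, which carries a tamoxifen-dependent Cre recombinase driven by Cx3cr1 and a tdTomato reporter that Cre turns on, and all were treated with tamoxifen. The label can therefore be carried by cells that expressed Cx3cr1 during treatment and have lived since. Per the study, part of the microglia were also labelled without tamoxifen. Tamoxifen was given topically to the eye, a regime for which the study reports high specificity for microglia at the peak of the infiltrate. Per the study's methods tamoxifen was given to young mice, weeks before the LPS, and the labels give no age for single retinas. Endotoxin-induced uveitis (EIU), an acute inflammation inside the eye, was started by intravitreal lipopolysaccharide (LPS). There were 10 naïve retinas that received no LPS, 6 taken at 4 h (the early phase), 5 at 18 h (the peak of the cell infiltrate) and 7 at 2 weeks (resolution). The study describes no group injected with vehicle alone, so LPS and the injection itself cannot be told apart in differences from naïve retinas. Retinas came from both eyes and from 2 experiments, with 6, 3, 4 and 4 retinas in experiment 1 and 4, 3, 1 and 3 in experiment 2. The labels do not say which retinas came from the same mouse, so that each retina was taken as 1 replicate and the errors measure only the spread between these retinas.

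Inhibitory immune receptors hold a cell back through a tyrosine motif in the cytoplasmic tail, the ITIM, which when phosphorylated recruits the phosphatases SHP-1 (Ptpn6) and SHP-2 (Ptpn11) or the lipid phosphatase SHIP-1 (Inpp5d). Activating receptors have short tails and a charged residue in the membrane that binds an adaptor such as DAP12 (Tyrobp) or the Fc receptor gamma chain (Fcer1g). Paired receptors are close relatives of both kinds encoded side by side, such as the inhibitory Pilra and the activating Pilrb1 and Pilrb2. In the retina and brain, ligands on neurons such as CD47 and CD200 engage such receptors on microglia.

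Pilra, Pilrb1 and Pilrb2 lie within 49864 bases of mouse chromosome 5 (GRCm38), all on the minus strand, and their promoters are printed here because all 3 genes were high at 18 h and the promoters share a sequence. Pilra spans chr5:137821952-137836281, Pilrb1 chr5:137852147-137858106 and Pilrb2 chr5:137865827-137871815. The RefSeq promoters, 250 bases before to 50 after the RefSeq start of the gene, are chr5:137836229-137836528, chr5:137858000-137858299 and chr5:137871709-137872008. The spans are from GENCODE, whose starts differ from those of RefSeq, for Pilrb1 and Pilrb2 by more than for Pilra. Capitals mark matches to motifs searched on both strands: the interferon-stimulated response element (ISRE, the letters GAAA, any 2 bases and GAAA again) and a PU.1-type site (GAGGAA).

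Pilra: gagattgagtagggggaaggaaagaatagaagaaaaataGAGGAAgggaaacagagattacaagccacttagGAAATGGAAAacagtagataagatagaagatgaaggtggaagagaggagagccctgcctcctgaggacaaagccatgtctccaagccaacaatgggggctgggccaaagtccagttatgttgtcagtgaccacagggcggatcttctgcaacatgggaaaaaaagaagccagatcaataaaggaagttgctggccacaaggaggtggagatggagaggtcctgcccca

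Pilrb1: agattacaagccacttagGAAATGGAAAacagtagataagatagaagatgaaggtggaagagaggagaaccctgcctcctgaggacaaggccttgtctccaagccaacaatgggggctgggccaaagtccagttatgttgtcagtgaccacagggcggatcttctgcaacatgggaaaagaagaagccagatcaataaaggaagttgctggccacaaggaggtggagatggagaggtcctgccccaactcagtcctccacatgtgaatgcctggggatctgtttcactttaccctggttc

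Pilrb2: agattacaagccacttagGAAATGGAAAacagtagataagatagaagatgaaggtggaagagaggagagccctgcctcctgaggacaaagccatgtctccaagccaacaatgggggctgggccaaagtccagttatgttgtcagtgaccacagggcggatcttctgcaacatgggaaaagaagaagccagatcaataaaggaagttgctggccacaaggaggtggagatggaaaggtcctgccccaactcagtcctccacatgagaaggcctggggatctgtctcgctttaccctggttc

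All 3 promoters hold the same ISRE-like match, GAAATGGAAA, which starts 178 bases before the RefSeq start of Pilra and 232 bases before those of Pilrb1 and Pilrb2. These distances, and the shift between windows given below, depend on the starts used. The motif is found in 3.44% of 32851 RefSeq promoters of the same length and in 3 of the 8 receptor promoters available, which are these 3. They are near copies and count as 1 instance: the Pilrb1 and Pilrb2 promoters were identical at 292 of 300 positions, and with the Pilra window shifted by 54 bases it was identical to Pilrb2 at 244 of 246. The interferon-type gamma-activated site (TTCNNNGAA), present in 8.30% of promoters, matched among the receptors only in Trem1. The PU.1-type site, present in 28.3% of promoters, matched in 6 of 8, namely Pilra, Pirb, Lair1, Cd33, Milr1 and Trem1. The RefSeq window of Cd33, chr7:43533122-43533421, lies inside the GENCODE span of that gene given below. An AP-1-type site (TGANTCA), present in 7.81% of promoters, matched in 0 of 8, and a C/EBP-type site (TTGCNNAA), present in 10.8%, in 4 (Pilra, Pilrb1, Pilrb2 and Lair1). A match is a description of the letters, no match says only that they are not in this window, and binding was not measured.

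The coding sequences show how the paired receptors differ. Over aligned coding bases, Pilrb1 and Pilrb2 were identical at 93.5% of positions, and Pilra was identical to them at 88.6% and 87.4%. In the stretch of 19 codons with the highest mean hydropathy, which marks the likely membrane segment, Pilrb1 and Pilrb2 have the lysine codon AAA at codon 202 and Pilra has no lysine codon. The Pilra stretch is at chr5:137831150-137831206, that of Pilrb1 at chr5:137854892-137854948 and that of Pilrb2 at chr5:137868592-137868648, and capitals mark the lysine codon.

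Pilra: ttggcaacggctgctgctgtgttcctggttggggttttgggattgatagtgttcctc

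Pilrb1: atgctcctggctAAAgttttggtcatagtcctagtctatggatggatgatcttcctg

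Pilrb2: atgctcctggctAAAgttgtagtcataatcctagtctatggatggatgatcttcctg

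Behind the membrane stretch Pilra has 85 codons and Pilrb1 and Pilrb2 have 9. ITIM codons, sought as a tyrosine codon preceded at 2 codons by isoleucine, leucine, valine or serine and followed at 3 codons by leucine, isoleucine or valine, were found behind that stretch in Pilra (1), Lair1 (2), Sirpa (3) and Pirb (3), and in none of the other 6 coding sequences, where this says only that these codons were not found in the transcript searched. The 18 bases of such sites are shown for the receptors whose levels fell at 4 h, with the tyrosine codon in capitals.

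Pilra, codon 267: atcgtgTATgcttccatc

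Lair1, codon 228: gtgacgTATatccagctg

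Lair1, codon 257: agcacaTATgcagccatc

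Sirpa, codon 440: atcacaTACgcagacctg

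Sirpa, codon 481: ctcaccTATgctgacctg

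Sirpa, codon 505: tcagagTATgctagtgtc

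In the order listed these lie at chr5:137823571-137823588 (minus strand), chr7:4009790-4009807 and chr7:4009703-4009720 (minus strand), and chr2:129629954-129629971, chr2:129630077-129630094, chr2:129630149-129630166 (plus strand), all within exons. Trem1, an activating receptor, has a lysine codon inside its membrane stretch (codon 214 of 205 to 223). Cd33 and Cd200r1 have one near an end of the stretch (codon 252 of 250 to 268 and codon 260 of 243 to 261). Whether these last residues lie within the membrane was not tested.

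The authors' values are RPKM, read counts divided by transcript length and by the mapped reads of the sample, and differences were fitted on log2(RPKM + 1) with limma, a linear model across all genes. A gene was called when its p after Benjamini-Hochberg adjustment was 0.05 or lower and it changed by 2-fold or more. On this scale differences of low genes are understated. The deposited table states 7510000 to 19700000 alignments per retina. Between 6552 and 11825 genes per retina had an RPKM of at least 1, and 4 retinas, all of experiment 1, had fewer than 8000: naïve 3 and 4, 18 h retina 4 and 2-week retina 1. All 11 microglia marker genes passed the filter. Their summed RPKM was between 8398 and 14284 in naïve retinas, between 2177 and 7268 at 4 h, between 4012 and 6603 at 18 h and between 8953 and 14362 at 2 weeks, and 6 of them were called lower at 4 h and 7 at 18 h. Per the study's methods a set number of live tdTomato-high cells was sorted from each retina. In bulk RNA of such a sort, fewer cells of a type among those sorted and less RNA per cell cannot be told apart.

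**Figure D1:**
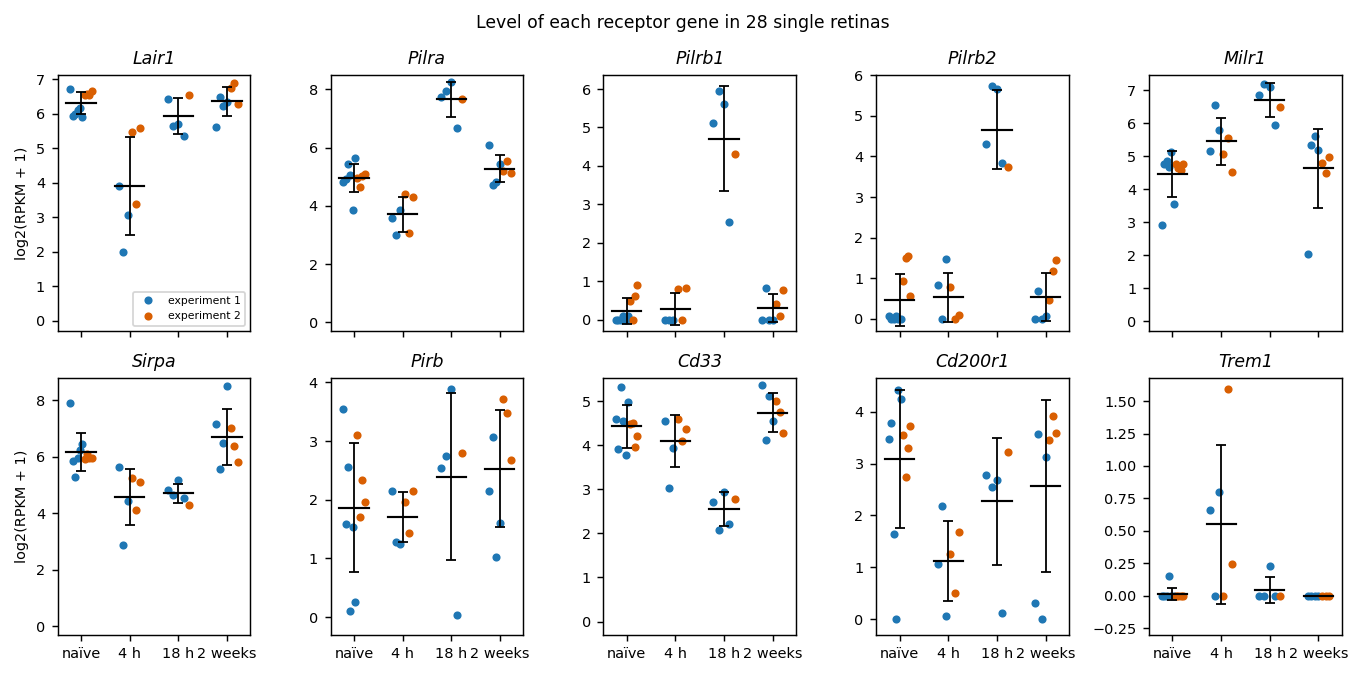
Level of each of the 10 receptor genes as log2(RPKM + 1) in naïve retinas (10) and at 4 h (6), 18 h (5) and 2 weeks (7) after LPS. Each point is a retina, coloured by experiment, and the bar with whiskers is the mean ± SD. Pilra, Pilrb1, Pilrb2 and Milr1 were high at 18 h, Lair1 was low at 4 h, Cd33 was low at 18 h, and Trem1 was near 0 outside the 4 h group.

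Of the 9 receptors in the fit, 3 were called at 4 h, all lower (Lair1, Pilra and Sirpa), 6 at 18 h, of which 4 were higher (Pilrb1, Pilrb2, Pilra and Milr1) and 2 lower (Cd33 and Sirpa), and 0 at 2 weeks. Over all 13164 genes tested, 8.08% were called at 4 h (3.68% higher and 4.39% lower), 4.69% at 18 h (2.84% higher and 1.85% lower) and 0.0076% at 2 weeks. Because the receptors were chosen from the same differences, nothing is read from their counts against these shares. Pilrb1 met the filter only through the 18 h retinas, so its higher level there than in naïve and 4 h retinas was fixed in advance. Directly between the time points, 5 receptors were called, with Pilrb1, Pilrb2, Pilra and Lair1 higher and Cd33 lower at 18 h than at 4 h, against 5.42% of all genes (2.92% higher and 2.51% lower). With all retinas set to an equal summed RPKM, the median difference of all genes moved from -0.11 to -0.28 at 4 h and from -0.08 to -0.26 at 18 h, and the calls became 410 higher and 1002 lower at 4 h (485 and 578 before) and 226 higher and 471 lower at 18 h (374 and 244 before). With quantile normalization the direct comparison of 18 h with 4 h gave 280 higher and 376 lower (384 and 330 before). No called receptor changed direction under either scaling.

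**Figure D2:**
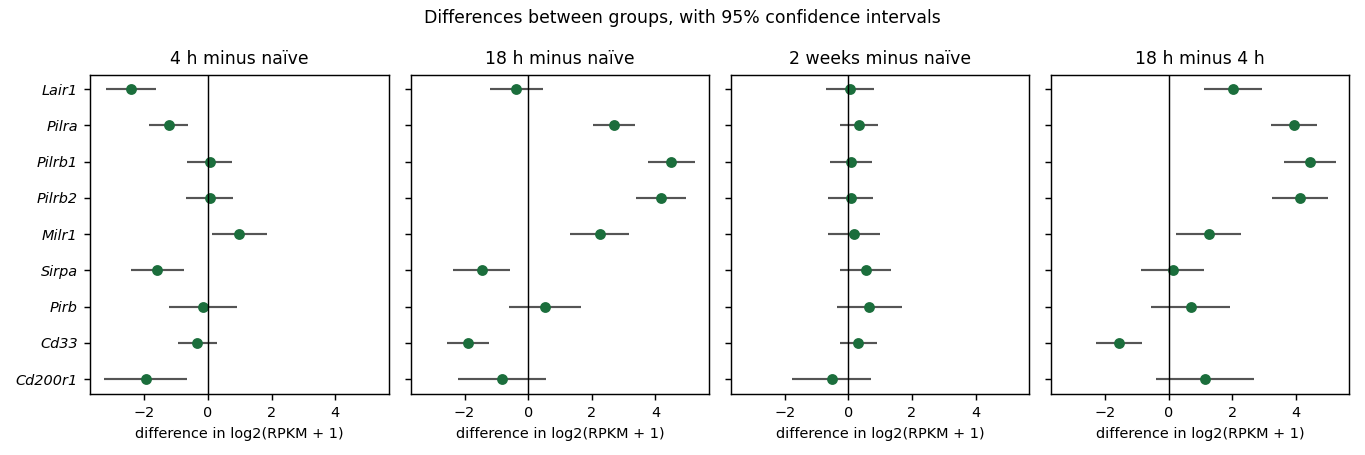
Difference in log2(RPKM + 1) between groups for the 9 receptors that passed the filter, with the 95% confidence interval from the limma fit of all 28 retinas. At 2 weeks every interval includes 0, and at 18 h those of Pilra, Pilrb1, Pilrb2 and Milr1 lie above 0 and those of Sirpa and Cd33 below it. Pilrb1 met the filter only through the 18 h retinas, so its intervals at 18 h are a description.

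Pilra, the inhibitory member of the pair, binds sialylated glycoproteins and recruits SHP-1. Its RPKM in naïve retinas ranged from 13.6 to 49.2 with a median of 30.8, and at 4 h from 7.07 to 20.2 with a median of 12.3. At 18 h the 5 retinas had 213.9, 246.5, 299.5, 100.6 and 200.0 RPKM, and at 2 weeks values ranged from 25.3 to 66.2 (median 36.0). All 5 retinas at 18 h thus lay above all 10 naïve retinas, and the lowest of them was over the highest at 2 weeks, while 4 of 6 at 4 h lay below every naïve value. The mean was 31.2 ± 9.60 RPKM (SD, n = 10) in naïve retinas, 12.96 ± 5.56 at 4 h (n = 6), 212 ± 73.2 at 18 h (n = 5) and 39.5 ± 13.9 at 2 weeks (n = 7). The difference on the log2 scale from naïve was -1.24 at 4 h (95% confidence interval -1.86 to -0.61), 2.71 at 18 h (interval 2.05 to 3.37) and 0.33 at 2 weeks (-0.26 to 0.93). Pilra was thus low at 4 h and high at 18 h, and its range at 2 weeks overlapped that of naïve retinas.

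Pilrb1 and Pilrb2 encode the activating members, whose signal runs through DAP12. Pilrb1 was at most 0.883 RPKM in naïve retinas, 0.766 at 4 h and 0.753 at 2 weeks, and had 33.8, 60.9, 48.0, 4.85 and 18.9 RPKM in the 5 retinas at 18 h. Pilrb2 was at most 1.95 RPKM in naïve retinas, 1.79 at 4 h and 1.73 at 2 weeks, and had 18.9, 51.8, 50.02, 13.4 and 12.3 at 18 h. No retina at 18 h overlapped with any other group for either gene. For Pilrb1 this follows from the filter, which it met only through the 18 h retinas, so its difference and interval are a description. Retina 4, with 6969 genes detected, was the lowest of the 18 h group for Pilra and Pilrb1. The log2 difference at 18 h was 4.49 for Pilrb1 (interval 3.75 to 5.23) and 4.19 for Pilrb2 (3.40 to 4.97), and since naïve values lay near 0 its size depended on the pseudocount: for Pilrb1 it was 6.99 with a pseudocount of 0.1 and 1.89 with 10.

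Values of the 2 copies were in part divided by the authors' estimation step. Of the 75-base windows in Pilrb1 transcripts, 9.27% also occur in Pilrb2 and 2.58% in Pilra, and that step can leave values close to 0. Summed over both genes, the log2 difference at 18 h was 5.09. The sum made up 13.5% to 31.4% of the summed RPKM of all 3 genes at 18 h (median 19.8%), against 0% to 0.352% in the naïve retinas of experiment 1 and 4.01% to 7.38% in those of experiment 2. The medians at 4 h and 2 weeks, 5.40% and 1.89%, lay within the range of all naïve retinas. The highest share outside 18 h was 11.7%, in a 4 h retina, so that the ranges did not overlap. The library type does not mark strand, so reads of Pilrb1 and Pilrb2 cannot be told from those of the antisense genes Gm36551 and Gm43495, which were listed at no more than 1.02 and 0.551 RPKM in any retina.

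**Figure D3:**
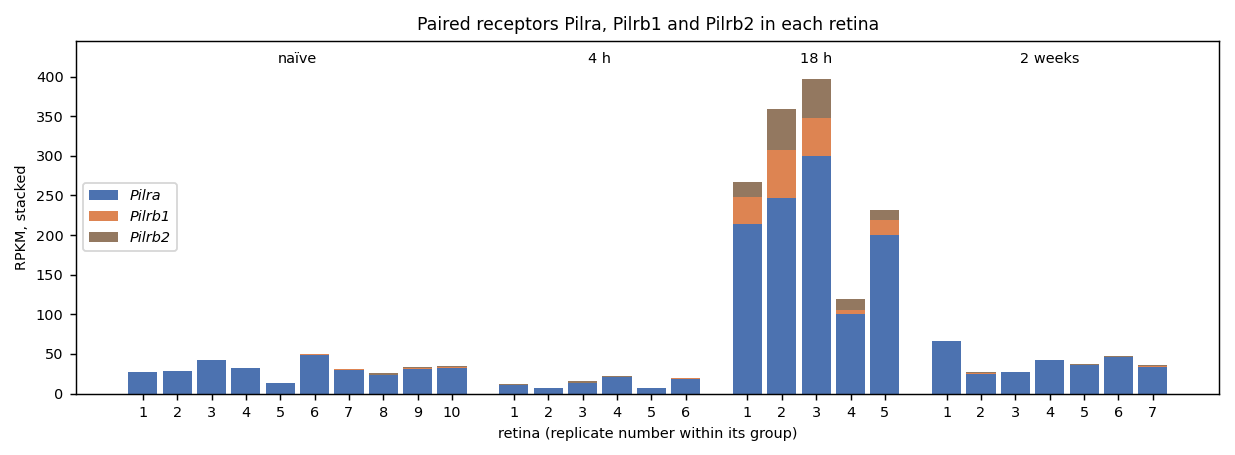
Stacked RPKM of Pilra, Pilrb1 and Pilrb2 in each of the 28 retinas, grouped by naïve, 4 h, 18 h and 2 weeks, with the replicate number within the group on the horizontal axis. Pilra made up the largest part in all retinas, and the combined share of Pilrb1 and Pilrb2 was 13.5% to 31.4% at 18 h and at most 11.7% elsewhere.

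Milr1 (chr11:106751226-106768794, plus strand) encodes allergin-1, an inhibitory receptor described on mast cells. It ranged from 6.46 to 34.2 RPKM in naïve retinas (median 25.2) and from 22.1 to 93.6 at 4 h (median 40.5), and its values at 18 h were 113.6, 144.4, 134.4, 60.0 and 89.3. At 2 weeks it was 3.10 to 47.8 (median 30.2). The 18 h retinas lay above all naïve ones, and 4 of 6 at 4 h did. The ranges of 4 h and 18 h overlapped. The log2 difference from naïve was 0.99 at 4 h (interval 0.12 to 1.85), which was not called, and 2.25 at 18 h (1.33 to 3.16), which was. Of 7 mast cell markers only 3 were among the genes listed, so the rest could not be assessed. Ms4a2 was listed at 0 in every retina, Kit was at most 0.345 RPKM, and Cma1 was above 0 at 18 h only, with at most 6.75 RPKM. Milr1 overlaps Polg2 on the other strand, which was at most 4.80 RPKM at 18 h.

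Lair1 (chr7:4003402-4063204, minus strand), a collagen receptor with the 2 ITIM codons shown above, was among the most abundant of the group in naïve retinas, with 59.5 to 103.7 RPKM (median 82.1). At 4 h it was 3.02 to 47.6 (median 11.8), and all 6 retinas lay below all 10 naïve retinas. At 18 h the values were 85.5, 49.1, 51.6, 39.8 and 91.8, of which 3 were below the naïve range and 2 within it. At 2 weeks it was 47.9 to 118.2 (median 80.2). The log2 difference from naïve was -2.41 at 4 h (interval -3.19 to -1.62), -0.38 at 18 h (interval -1.21 to 0.45) and 0.06 at 2 weeks (-0.69 to 0.80), and the difference between 18 h and 4 h was 2.03 (1.11 to 2.95). The 4 h retinas differed among themselves, with 14.0, 3.02 and 7.41 RPKM in experiment 1 and 43.3, 9.51 and 47.6 in experiment 2.

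Sirpa (chr2:129592835-129632228, plus strand) encodes the receptor for CD47, the signal that restrains phagocytosis. Naïve retinas ranged from 38.1 to 236.5 RPKM (median 61.5), 4 h retinas from 6.41 to 48.2 (median 27.2), and 2-week retinas from 46.9 to 361.0 (median 87.6). At 18 h the values were 27.3, 24.3, 35.4, 22.1 and 18.8, all below every naïve retina, as were 5 of 6 at 4 h. The log2 difference was -1.59 at 4 h (interval -2.42 to -0.75), -1.46 at 18 h (-2.35 to -0.58), and 0.13 between 18 h and 4 h (-0.85 to 1.11). Its call at 18 h was near the limit, and was lost in 18 of 28 fits that left out 1 retina, in which the difference ranged from -1.58 to -1.27. At 4 h the call was lost without retina 2, when the difference was -1.25, in experiment 1 only (-1.97) and on untransformed RPKM (-1.57, the log2 ratio of mean RPKM).

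Cd33 (chr7:43524216-43544428, minus strand) encodes a lectin that binds sialic acids. It ranged from 12.7 to 39.3 RPKM in naïve retinas (median 21.5), 7.14 to 23.3 at 4 h (median 18.0) and 16.5 to 39.99 at 2 weeks (median 25.8). At 18 h the values were 5.56, 3.20, 6.71, 3.60 and 5.92, which were below every retina of the other 3 groups. The mean fell from 21.7 ± 8.15 (SD, n = 10) to 5.00 ± 1.52 (n = 5), a log2 difference of -1.89 (interval -2.54 to -1.24). The difference at 4 h was -0.33 (-0.95 to 0.28).

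Cd200r1 (chr16:44765736-44794978, plus strand) encodes the receptor for CD200, a neuronal surface protein. It was 0 to 20.4 RPKM in naïve retinas (median 10.4), 0.0438 to 3.54 at 4 h (median 1.24), and 0 to 14.1 at 2 weeks (median 9.97), and the 18 h values were 5.88, 4.88, 5.40, 0.0866 and 8.35. The ranges of all groups overlapped. Naïve retina 4, 18 h retina 4 and 2-week retina 1, each with fewer than 8000 genes detected, were at or near 0, and so was 2-week retina 3, which had more. The log2 difference at 4 h was -1.96 (interval -3.27 to -0.66), which was not called, and without the 4 retinas with few genes, a fit chosen after seeing the data, it was -2.53 and was called. At 18 h the difference was -0.82 (-2.20 to 0.57). The related Cd200r4 shares 14 of 3489 windows with it.

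Pirb (chr7:3711409-3720391, minus strand) encodes a receptor for MHC class I and for the myelin protein Nogo. It was low in every group, with 0.0753 to 10.7 RPKM in naïve retinas (median 2.58), 1.38 to 3.44 at 4 h (median 2.30) and 1.03 to 12.2 at 2 weeks (median 5.39). The 18 h values were 4.79, 5.70, 13.7, 0.0197 and 5.91. All groups overlapped, and the log2 differences from naïve were -0.16 at 4 h (interval -1.22 to 0.90), 0.53 at 18 h (interval -0.60 to 1.65) and 0.66 at 2 weeks (-0.35 to 1.68). Of its 75-base windows 26.0% occur in other genes, mainly the activating relatives Pira2, Gm14548 and Gm15922, none of which exceeded 1.11 RPKM in any retina.

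Trem1 (chr17:48232768-48246924, plus strand) encodes an activating, DAP12-coupled receptor that amplifies the response to LPS. It was listed at 0 in 9 of 10 naïve retinas and in all 7 at 2 weeks, and the remaining naïve retina had 0.112 RPKM. At 4 h it was listed at 0 in 2 of 6 retinas, and the other 4 had 0.580, 0.744, 2.02 and 0.187, all above every naïve retina. At 18 h 4 of 5 were listed at 0 and 1 had 0.173. At this depth such values rest on few reads, and no fold was computed against a group listed at 0.

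Over all genes tested, all retinas of the 4 h group lay above all naïve ones for 1.65% of genes and below them for 1.42%, and those of the 18 h group for 2.05% and 1.3%. Among the 9 receptors Lair1 was the 1 that did not overlap at 4 h (below), and at 18 h Pilra, Pilrb1, Pilrb2 and Milr1 lay above and Sirpa and Cd33 below. That Pilrb1 lay above follows from the filter, which it met only through the 18 h retinas. At 2 weeks none was separate from the naïve group. With the groups ordered from the highest mean to the lowest, the ranges of neighbouring groups overlapped everywhere but for Pilra, Pilrb1 and Pilrb2, between 18 h and 2 weeks, and for Cd33, between 4 h and 18 h. No share over all genes is given for these pairs or for 2 weeks against naïve, so nothing is read from them.

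The 2 experiments and the 2 eyes were not used in choosing the receptors, so these comparisons were tested. Between experiments 1 and 2 in naïve retinas, 1.79% of all genes passed an adjusted p of 0.05 and 0 of the 9 receptors did. The median log2 difference of all genes was 0.40, and 206 of the 236 that passed were higher in experiment 2. Pilrb2 came closest, with 0 to 0.0576 RPKM in the 6 naïve retinas of experiment 1 and 0.488 to 1.95 in the 4 of experiment 2, and these ranges did not overlap (log2 difference 1.11, SE 0.38, limma adjusted p = 0.11). With a pseudocount of 0.1, 1 receptor passed, Pilrb2. The change from naïve to 4 h differed between the experiments for 0.0988% of genes and for 0 receptors. Lair1 fell to 8.15 ± 5.54 RPKM in experiment 1 and 33.5 ± 20.9 in experiment 2 (SD, n = 3 in each). Its difference between the experiments was 1.38 on the log2 scale (interval 0.05 to 2.72, limma p = 0.043 unadjusted and 1 adjusted), and that of Pilrb2 was -1.59 (-2.86 to -0.33, limma p = 0.015 unadjusted and 0.79 adjusted). The 2-week change differed between the experiments for 0% of genes, and right and left eyes differed for 0%, by limma. Of the 13164 genes tested, 383 and 579 had an unadjusted p under 0.05, both fewer than the 1 in 20 expected if no gene differed. Pirb was 0.86 lower in right than in left eyes on the log2 scale (interval -1.59 to -0.13, limma p = 0.022 unadjusted and 0.81 adjusted), and the other receptors had eye differences between -0.70 and -0.01. The median eye difference of all genes was -0.13.

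Within experiment 1 alone, which held 4 of the 5 retinas at 18 h, Pilra was 32.2 ± 12.4 RPKM in naïve retinas and 215 ± 84.1 at 18 h, Milr1 21.6 ± 10.7 and 113 ± 37.7, and Cd33 23.7 ± 10.0 and 4.77 ± 1.65 (SD, n = 6 and 4). The single 18 h retina of experiment 2 had 200.0 RPKM of Pilra, 89.3 of Milr1 and 5.92 of Cd33. In the 4 naïve retinas of that experiment these genes had 23.8 to 32.8, 23.2 to 26.2 and 14.5 to 21.7 RPKM. All these values are among those from which the receptors were chosen, so the split is a description and no separate support. In experiment 1 only, Milr1 at 18 h was not called (difference 2.45). At 4 h, Sirpa was 25.0 ± 21.3 in experiment 1 and 29.1 ± 11.1 in experiment 2 (n = 3 in each), against 92.3 ± 72.6 and 62.3 ± 2.98 in their naïve retinas (n = 6 and 4).

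Genes of the same pathways were taken from 4 lists: other inhibitory receptors, other activating receptors, their adaptors, kinases and phosphatases, and ligands. These genes are not among the receptors above, but the lists too were chosen with earlier results of these data known. They are given with limma's test, and their counts and p-values are a description. Over all genes tested, 3.68% were called higher and 4.39% lower at 4 h, and 2.84% and 1.85% at 18 h. Of 15 other inhibitory receptors past the filter (of 21 listed), 4 rose and 2 fell at 4 h, and 4 rose and 1 fell at 18 h. Their median log2 difference was -0.38 at 4 h and 1.33 at 18 h, beside -0.11 and -0.08 over all genes. Cd72, a C-type lectin with an ITIM, was 13.2 to 65.2 RPKM in naïve retinas, 80.5 to 269 at 4 h and 193 to 357 at 18 h, and rose by 2.51 (SE 0.35, adjusted p = 5.7e-06) and 3.44 (SE 0.37, adjusted p = 1.7e-07). Its values at both times lay above all naïve retinas.

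Lilrb4 and Lilrb4a, 2 entries with related symbols that the list holds as inhibitory, rose by 3.11 and 2.95 at 4 h (adjusted p = 1.6e-05 and 0.018) and by 3.02 and 3.28 at 18 h (adjusted p = 1.7e-04 and 0.022). Whether both inhibit, whether they are separate genes and how far they share reads was not tested, so that they may not be separate rises in the counts above. Cd300lf rose at 4 h (1.84, adjusted p = 0.012) and Fcgr2b, the inhibitory Fc receptor, at 18 h (1.33, adjusted p = 0.0097). Vsir, which encodes the checkpoint receptor VISTA, fell at both times, with 53.4 ± 38.3 RPKM in naïve retinas, 11.9 ± 7.36 at 4 h and 13.6 ± 3.20 at 18 h (-2.16 and -1.74, adjusted p = 2.8e-04 and 0.0098). Clec4a2 fell at 4 h (-1.52, adjusted p = 0.026), with 24.2 ± 11.99 RPKM in naïve retinas, 7.76 ± 4.70 at 4 h and 57.9 ± 17.5 at 18 h.

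From the list of other activating receptors, 15 of 35 genes passed the filter. Of these, 0 rose and 1 fell at 4 h, and 4 rose and 2 fell at 18 h, with medians of -0.36 and 0.28. The list was written from general knowledge, and whether each of its receptors activates was not tested. It holds Clec4a1 and Clec4a3, while Clec4a2 is listed as inhibitory. Clec4a3 fell at 4 h (-1.45, adjusted p = 0.023) and rose at 18 h (2.37, adjusted p = 8.7e-04), with 88.9 ± 44.3 RPKM in naïve retinas, 38.0 ± 31.7 at 4 h and 413 ± 88.7 at 18 h. Clec4a1 rose at 18 h by 3.47 (adjusted p = 0.0016). Tarm1 is counted among the rises at 18 h, with a difference of 2.34, but was listed at 0 in at least 1 retina of each group. Its highest RPKM was 0.109 in naïve retinas and 0.287 at 2 weeks. It thus met the filter only through retinas at 4 h and 18 h, so no p-value is given for it. Clec4e, the receptor Mincle, rose at 18 h by 2.10 (adjusted p = 0.016). Trem2, a DAP12-coupled lipid receptor, fell from 129 ± 48.7 RPKM to 32.4 ± 20.1 at 18 h (-2.08, adjusted p = 5.2e-04), and Siglech, which is also a microglia marker, from 201.1 ± 65.7 to 33.4 ± 27.0 (-2.91, adjusted p = 1.7e-05).

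**Figure D4:**
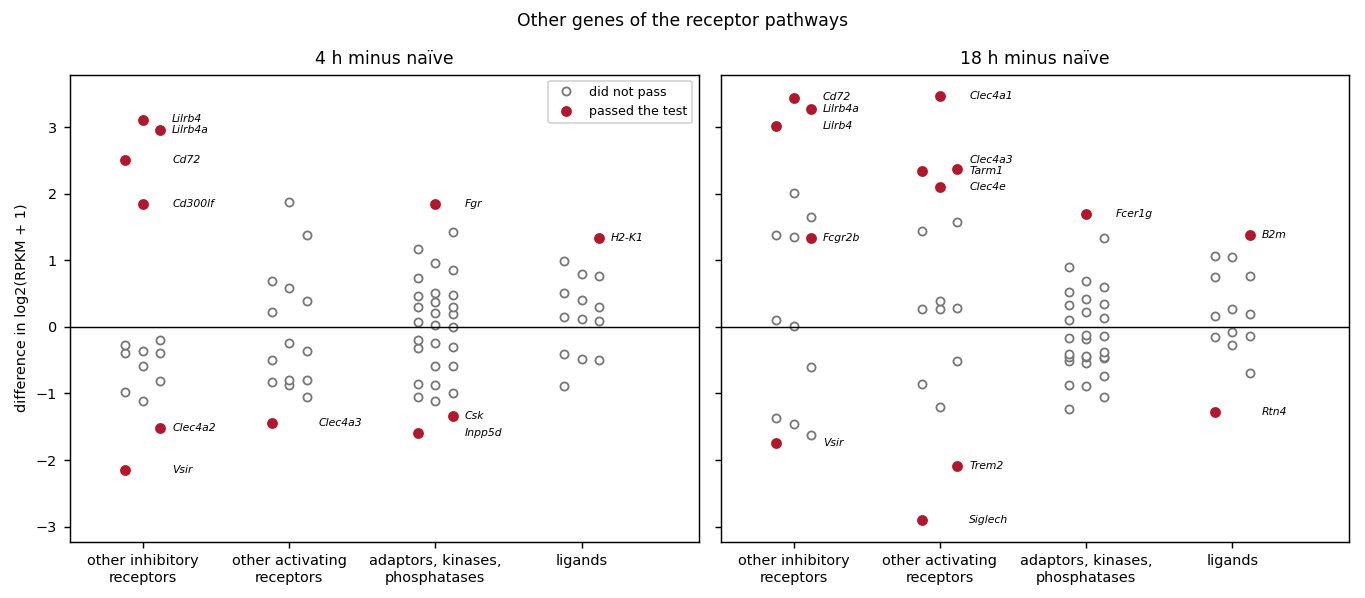
Difference in log2(RPKM + 1) from naïve at 4 h (left) and 18 h (right) for genes of 4 pathway lists that passed the filter, 1 point per gene. Filled red points met the criteria for a call and are named, and open points did not. At 4 h 4 of 15 other inhibitory receptors and 0 of 15 other activating receptors rose, and at 18 h 4 of 15 of each list did. Over all genes tested, 3.68% were called higher at 4 h and 2.84% at 18 h. The rises at 18 h include Tarm1, which met the filter only through retinas at 4 h and 18 h.

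Among 30 adaptors, kinases and phosphatases past the filter (of 32 listed), 1 rose and 2 fell at 4 h and 1 rose at 18 h. Fcer1g rose at 18 h by 1.69 (SE 0.26, adjusted p = 6.5e-05), from 1980 ± 508 RPKM to 6237 ± 1383. Tyrobp, the DAP12 adaptor of Pilrb1, Pilrb2 and Trem1, was 1260 ± 734 RPKM in naïve retinas, 1406 ± 732 at 4 h and 1270 ± 586 at 18 h, and its log2 differences of 0.30 and 0.10 did not pass (adjusted p = 0.80 and 0.95). Inpp5d fell at 4 h by 1.59 on the log2 scale (adjusted p = 0.017) and at 18 h its difference of -1.23 did not pass (adjusted p = 0.14). Ptpn6 and Ptpn11, the phosphatases that ITIMs recruit, had differences of -0.58 and 0.47 at 4 h and of -0.14 and 0.42 at 18 h, none of which passed (adjusted p = 0.54, 0.56, 0.92 and 0.67). The Src-family kinase Fgr rose at 4 h (1.85, adjusted p = 0.0074), and Csk, which holds such kinases inactive, fell at 4 h (-1.33, adjusted p = 0.043).

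Of 14 ligand genes past the filter (of 28 listed), 1 rose at 4 h, and 1 rose and 1 fell at 18 h. The MHC class I gene H2-K1 rose at 4 h by 1.34 (adjusted p = 0.0035), and B2m, its light chain, rose at 18 h by 1.37 (adjusted p = 0.039). Rtn4, which encodes Nogo, fell at 18 h by 1.28 on the log2 scale (adjusted p = 0.023). Cd47 was 41.9 ± 19.8 RPKM in naïve retinas, 49.5 ± 33.8 at 4 h and 47.5 ± 11.6 at 18 h, and Cd200 was 4.07 ± 3.06, 5.00 ± 2.78 and 2.82 ± 1.63, with no difference that passed (adjusted p between 0.79 and 0.91 for Cd47 and Cd200 at both times). These are values of sorted microglia, and ligands on retinal neurons were not measured. At 2 weeks 0 genes of the 4 lists passed. Of all 13164 genes tested 1 passed, and 378 had an unadjusted p under 0.05 in the limma fit. That is fewer than the 1 in 20 expected if no gene differed.

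Markers of other cell types were summed in each retina beside these results. Of 12 neutrophil markers only Csf3r passed the filter, and S100a8 and S100a9 were at most 9.24 and 5.15 RPKM at 18 h and Ly6g at most 0.189. The 9 monocyte markers summed to 0.151 to 3.30 RPKM in naïve retinas, 1.11 to 21.5 at 4 h, 4.17 to 54.7 at 18 h and 0.584 to 26.7 at 2 weeks, and 2 of them passed the filter. Itgal, an integrin of many leukocytes, was called higher at 4 h (1.30, adjusted p = 3.4e-04) and at 18 h (2.22, adjusted p = 5.7e-07), and Plac8 was not called, with differences of 0.54 and 1.88 (adjusted p = 0.70 and 0.12). Ccr2 and Ly6c2, which define classical monocytes, were at most 1.15 and 4.68 RPKM in any retina. Of 11 lymphocyte markers, Nkg7 rose at 18 h by 4.36 (adjusted p = 2.0e-10), while Cd3e was at most 0.297 RPKM at 18 h. The 11 lymphocyte markers summed to 20.2 to 81.3 RPKM in naïve retinas, 6.62 to 18.3 at 4 h and 40.04 to 147 at 18 h. Only 2 of them passed the filter, of which 1 was called lower at 4 h, and 6 were at 0 in every naïve retina. The 7 border macrophage markers summed to 12.2 to 638 in naïve retinas and 32.2 to 89.2 at 18 h, and the 5 dendritic cell markers to at most 8.40 in any retina. Transcripts of other retinal cells were found in all groups, and their source was not tested: the 7 rod photoreceptor markers summed to 723 to 4427 in naïve retinas and 598 to 1937 at 18 h, and the 6 Müller glia markers to 273 to 4961 and 142 to 1757, with Nrl (a rod gene) and Glul (a Müller glia gene) called lower at 18 h. Endothelial markers reached at most 4.10 RPKM in sum, and erythrocyte markers 735 at 4 h and 67.9 at 18 h. The part of these cells in the receptor levels was not tested.

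For each receptor past the filter, the genes with the most similar profile over the 28 retinas were taken by Pearson's r of log2(RPKM + 1), as a description over retinas that share groups and libraries. Those of Lair1 were Cd84 (0.93), Ptpn18 (0.92) and P2ry13 (0.91), and P2ry13 kept an r of 0.90 when group means were removed. Pilrb1 was most like Pilrb2 (0.94), Vnn3 (0.93) and Wfdc21 (0.93), and Pilrb2, after Pilrb1, most like Wfdc21 (0.93) and Marco (0.90). With group means removed, the r of Pilrb1 was 0.54 with Pilrb2, 0.89 with Vnn3 and 0.11 with Wfdc21, and that of Pilrb2 was 0.31 with Wfdc21 and -0.02 with Marco. Pilra was nearest to Bst2 (0.89), Ppib (0.87) and Tmem33 (0.87), but within groups the r with Bst2 was 0.09. Milr1 was nearest to Nme2 (0.85), Psmb4 (0.84) and Prdx5 (0.84), Sirpa to Dhrs3 (0.91) and Vsir (0.86), and Cd33 to Pdgfb (0.87), Plxdc2 (0.86) and Arl4c (0.86). Pirb was nearest to Cpsf3 (0.88), Slc46a1 (0.88) and Alg1 (0.88), and Cd200r1 to Brip1os (0.82), Lbx2 (0.80) and Chpt1 (0.79).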

How the data were processed

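Per the study's methods, mRNA of live tdTomato-high cells from single retinas was amplified to cDNA with a kit that does not mark strand and read as single ends. The authors trimmed the reads, aligned them to mm10 with STAR 2.5.3a and quantified Ensembl transcripts in Partek, where an E/M step apportions reads that fit several genes. The deposited values are RPKM per gene and retina, so whole reads were not recovered, and that step can leave exact zeros and values close to 0. The authors' tables of their own comparisons (p-values, fold changes, F statistics) were not used. Per the file headers each retina had between 7510000 and 19700000 alignments, which limits the precision of low values.

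Values were transformed to log2(RPKM + 1), and a gene was kept if 5 or more of 28 retinas had an RPKM of 1 or higher (13164 of 40021). A single limma 3.58.1 fit in R 4.3.3 held all retinas in 4 groups, with a variance prior that follows the mean level, and p-values were adjusted over all genes tested (Benjamini-Hochberg). The fit was tested on simulated data. Experiments were compared in a second fit with a term for each group and experiment, and eyes with eye side as a term. Receptors and lists were chosen with earlier results of these data known. Genes were named by a rule: the 10 receptors, the 3 genes most like each, at most 3 rises and 3 falls per list and time, and Tyrobp, Fcer1g, Ptpn6, Ptpn11, Inpp5d, Cd47 and Cd200. Some items that this rule or the lists would name are not reported here. Cd300lf, Fcgr2b, Clec4e and the cell type markers were named after their values were seen. Coordinates are those of GENCODE mouse M21 (GRCm38), promoters those of RefSeq (GRCm38), found for 8 of 10 receptors and not for Sirpa or Cd200r1. Coding sequences were searched with Biopython 1.88, taking the longest complete coding sequence of each gene. Alternatives were other pseudocounts, filters, scalings, variance models, covariates, a replicate block, each experiment alone and each retina left out. A fit without the 4 retinas with fewer than 8000 genes was chosen after seeing the data. Figures were drawn with matplotlib 3.10.9.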

Additional observations from a re-analysis of the deposited data

Results flagged for a closer look

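Within each group of 5 to 10 retinas, the highest and lowest log2(RPKM + 1) of each receptor was compared with the rest by Dixon's ratio. Of 39 such groups, 5 held a value set apart from the others, where chance gives about 1 in 20. Sirpa was 237 RPKM in naïve retina 1, against 38.1 to 87.4 in the other 9. Milr1 was 3.10 in 2-week retina 1, against 21.4 to 47.8 in the other 6, and Cd200r1 was 0.0866 in 18 h retina 4, against 4.88 to 8.35 in the other 4. Both of these retinas had fewer than 8000 genes with an RPKM of at least 1. Trem1 was 0.112 in naïve retina 4 and 0.173 in 18 h retina 3, where all other retinas of those groups were listed at 0. With the others at 0 any value above 0 is set apart, so these last 2 cannot be read against chance. All 5 retinas belonged to experiment 1. For no receptor did the change at 4 h or 2 weeks differ between experiments by limma.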

How the results depend on the processing

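No called receptor difference turned its direction under any alternative. With a pseudocount of 10 the counts of all genes called were 416 at 4 h, 338 at 18 h and 458 between 18 h and 4 h. In experiment 1 only they were 459 (1 receptor, Lair1), 232 and 202, and in experiment 2 only 1558 (4 receptors), 165 and 629, where 1 retina stands for the 18 h group and was assumed to vary like the others. Untransformed RPKM gave 0 at 2 weeks. Without the 4 retinas with fewer than 8000 genes, chosen after seeing the data, 1241 genes were called between 18 h and 4 h and 5 receptors at 4 h.

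Between experiments in naïve retinas, the 236 genes became 120 with a pseudocount of 0.1 (with 1 receptor, Pilrb2), 73 with a filter at an RPKM of 5, 121 with quantile normalization and 0 with the replicate block. For the difference between experiments at 4 h, the 13 genes became 0 with a pseudocount of 0.1, 46 with 10, 25 with no filter, 1 with a filter at 5, 20 with quantile normalization and 0 with the replicate block, and at 2 weeks no filter gave 4.

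With each retina left out, calls ranged from 854 to 1186 at 4 h (3 to 4 receptors), from 407, without 18 h retina 1, to 729 at 18 h (5 to 6 receptors), and from 473 to 835 between 18 h and 4 h (5 to 6 receptors). They ranged from 11, without naïve retina 10, to 1650, without naïve retina 1, between experiments, and from 1, without 4 h retina 6, to 38, without 4 h retina 1, for the difference at 4 h.

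Sirpa at 18 h lost its call with a pseudocount of 0.1, without a filter, in each experiment alone, on untransformed RPKM and without any single 18 h retina. Sirpa at 4 h lost it in experiment 1 only, on untransformed RPKM and without 4 h retina 2. Pilra at 4 h lost its call with a pseudocount of 10 (-0.84), in experiment 1 only (-1.46) and on untransformed RPKM (-1.27, here the log2 ratio of mean RPKM), Milr1 at 18 h in experiment 1 only (2.45), and Cd33 at 18 h in experiment 2 only (-1.50). Between 18 h and 4 h, Cd33 lost its call with a pseudocount of 10 (-0.83), in experiment 1 only (-1.35) and on untransformed RPKM (-1.78), and Lair1 in experiment 2 only (1.71), while Milr1 gained one with a pseudocount of 10, in experiment 2 only, on untransformed RPKM, without the 4 retinas with few genes and without 2-week retina 1 (1.10 to 1.46), and Cd200r1 in experiment 2 only (2.07) and without those 4 retinas (1.68). Milr1 at 4 h gained one without those 4 retinas (1.06). Cd200r1 at 4 h, not called, was called under 10 of 17 other alternatives and when naïve retina 3 or 4, 4 h retina 2, 18 h retina 4 or 2-week retina 1 or 3 was left out. The causes were not tested.

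Over 34 same-numbered pairs the correlation of deviations was -0.33 to 0.70 (median 0.035, against 0.005 for different numbers), and 44.1% of these pairs were over 0.1. Of 25 retinas, 7 were most like one of their own number. The matches that chance would give were not computed, so this check cannot decide whether replicate numbers pair retinas. With the replicate block, 1076, 598 and 554 genes were called at 4 h, at 18 h and between them, and the same receptors. Depth limits Trem1, Pirb and, outside 18 h, Pilrb1 and Pilrb2.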
